A study of Mus musculus with 5 samples.

Results

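Cytosolic ribosomal protein genes were followed across 5 microarrays of mouse bone marrow plasma cells (PCs). The genes were taken by name and not by their values, though earlier results of these data were known when the list was chosen. They were the genes with a probe set of their own whose symbol is Rpl or Rps followed by a digit, or Rplp0, Rplp1, Rplp2 or Rpsa, leaving out the Rps6 kinases and pseudogenes. This gave 50 genes of the 18193 that had a probe set with a single gene symbol, on 106 probe sets, and the probe set with the highest mean log2 intensity stood for each gene. Of the 50, 20 encode proteins of the large subunit, 21 of the small subunit and 2, Rplp0 and Rplp2, proteins of the stalk. The other 7 symbols that the name rule takes in are 6 paralogs, Rpl3l, Rpl7l1, Rpl22l1, Rpl39l, Rps27l and Rps4l, and Rps19bp1, which encodes a protein that binds Rps19 and is not itself part of the ribosome. Further 31 ribosomal protein symbols had no probe set of their own and appeared only on probe sets that carry several symbols, so the list holds part of the ribosome.

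The PCs came from C57BL/6J mice that were primed with NP-CGG in incomplete Freund's adjuvant and boosted 2 times, and were taken over 30 days later. They were isolated by magnetic depletion of cells carrying B220 or CD49b and enrichment of CD138high cells. RNA was prepared either directly (ex vivo, 1 array in each of 2 experiments) or after 3 days of culture on ST2 cells with APRIL at physiological oxygen, after which the PCs were sorted by flow cytometry (1 array in experiment 1, and a first and a second array in experiment 2). ST2 is a stromal line from mouse bone marrow, and APRIL is a cytokine of the tumor necrosis factor family that binds BCMA on PCs. The mice carried no engineered allele by the labels, and neither their age nor the number pooled per array is stated in the sources used here. Whether the 2 cultured arrays of experiment 2 came from separate cultures is not given either, so that p-values measure the spread between these arrays, part of which may be technical.

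The cytosolic ribosome joins a small subunit, which reads the mRNA, with a large subunit, which forms the peptide bond, and each protein is present in about equal number in a finished particle. The acidic stalk of the large subunit recruits the elongation factors. Most ribosomal protein mRNAs begin with a 5′ terminal oligopyrimidine tract (TOP), a cytosine followed by a run of pyrimidines, through which their translation depends on mTORC1, a kinase complex downstream of PI3K. PCs secrete large amounts of antibody and carry a dense rough endoplasmic reticulum. The arrays measured RNA, not translation, and the intensities of different probe sets are not comparable as RNA levels, since each binds with its own strength.

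The first transcribed bases show what such a tract looks like. The 30 bases around the start annotated by RefSeq in GRCm38.p6, 10 before it and 20 from it, are given for 5 ribosomal protein genes whose annotated start opens a pyrimidine tract, chosen from both subunits and the stalk and from genes that did and did not differ below, and for 1 paralog without one. Capitals mark the pyrimidine run that begins with the cytosine at the start.
Rplp2, chr7:141447641-141447670, + strand: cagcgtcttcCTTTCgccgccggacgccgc
Rpl35, chr2:39005112-39005141, - strand: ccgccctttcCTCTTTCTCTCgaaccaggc
Rps10, chr17:27635225-27635254, - strand: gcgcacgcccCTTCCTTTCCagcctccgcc
Rps27, chr3:90213629-90213658, - strand: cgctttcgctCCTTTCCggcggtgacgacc
Rps18, chr17:33955646-33955675, - strand: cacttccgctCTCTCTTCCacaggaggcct
Rpl39l, chr16:10170218-10170247, + strand: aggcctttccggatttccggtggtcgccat
The tracts of the 5 genes differ in length, and Rpl39l, which encodes a paralog of the exit tunnel protein Rpl39, has none at its annotated start, although a cytosine followed by 6 pyrimidines ends just before it.

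Of the 50 genes, 44 were in the promoter table, which gives 250 bases before and 50 after each start. A start of this kind, C at the first base and at least 4 further C or T, was annotated for 8 of the 44 (18.2%), for 2.67% of 17491 protein-coding genes and for 0 of 67 genes of mitochondrial ribosomal proteins. A looser match, C followed by at least 6 pyrimidines anywhere from 10 bases before to 30 bases after the annotated start, was found in 52.3% of the 44, in 3491 of the 17491 coding genes and in 19.4% of the mitochondrial set. The motif CCGGAAG, which ETS-family factors bind, was present on either strand of the window in 47.7% of the 44, 12.9% of all coding genes and 37.3% of the mitochondrial set. The GC box GGGCGG, again on either strand, was in 59.1% of the 44 and 49.2% of all, and TATAAA from 40 to 10 bases before the start in 2.27% and 3.15%. These are matches of letters to annotated starts, which can lie some bases from the true one.

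Ribosomal protein probe sets were among the brightest on the arrays. In all 5 arrays 34 of the 50 genes had an intensity above 2000, with log2 values from 11.05 to 13.68. Rps7, a protein of the small subunit, was the brightest, at 13.63 and 13.62 ex vivo in experiments 1 and 2, 13.68 cultured in experiment 1, and 13.58 and 13.68 in the first and second cultured arrays of experiment 2. The stalk base protein gene Rplp0 followed at 13.49, 13.48, 13.51, 13.46 and 13.57 in the same order, which is kept below. Neither gene had its experiments apart. Rpl41, the smallest ribosomal protein, gave 13.62, 13.37, 13.49, 13.35 and 13.24. Rps2, which lies at the mRNA entry of the small subunit, gave 13.33, 13.50, 13.29, 13.47 and 13.26. Rpl4, which lines the exit tunnel, gave 13.60, 13.15, 13.63, 13.20 and 13.22, with both arrays of experiment 1 above all 3 of experiment 2.

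The dimmest probe sets were those of Rps16 (3.98 to 4.26) and Rpl37 (4.06 to 4.53), which lay below an intensity of 50 in all 5 arrays and were not tested, so that 48 genes were. Next came the paralogs Rps4l (5.75 to 6.00) and Rpl3l (5.75 to 6.12), the latter known as a protein of muscle ribosomes, and then Rps27 (6.09 to 7.32). For several of these genes another probe set was brighter. The mean log2 intensity was 13.15 on a several-symbol probe set that names Rps16 and 4.07 on its own set. For Rpl37 these values were 11.98 and 4.29, for Rps27 11.77 and 6.55, and for Rpl12 11.67 and 7.76. In all, 8 of the 15 genes that also had a several-symbol set were brighter there by over 1 on the log2 scale.

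**Figure D1:**
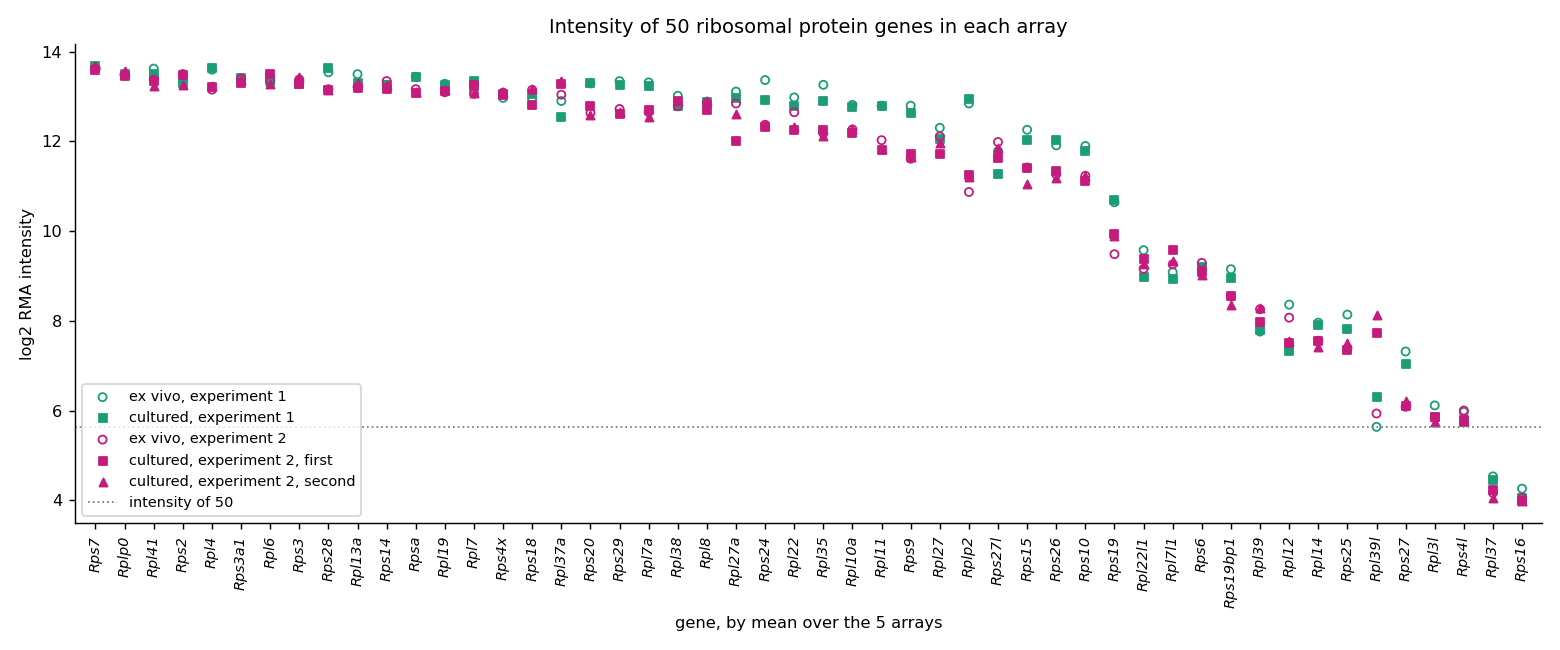
Log2 RMA intensity of the 50 ribosomal protein genes (vertical axis) in each of the 5 arrays, with genes ordered by their mean on the horizontal axis. Open circles are ex vivo and filled symbols cultured PCs, green is experiment 1 and magenta experiment 2. Most genes lie above 11, Rps16 and Rpl37 lie below the dotted line at an intensity of 50, and for Rplp2, Rps9 and Rps19 the green points lie above all magenta ones.

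Culture changed no ribosomal protein gene past the threshold. Between cultured and ex vivo PCs, 0 of the 48 tested genes passed limma's test at an adjusted p of 0.05, where 0.0459% of all 30477 tested probe sets did. With the experiment as a replicate block, which pairs the arrays of the same experiment, 0 of 48 passed again, with 1.8% of all tested probe sets. Unadjusted p-values under 0.05 numbered 2 of 48 without and 4 of 48 with the block, and 6.59% and 18.5% of all probe sets. The median fitted change of the 48 genes was -0.093 on the log2 scale without and -0.053 with the block, where those of all tested probe sets were -0.019 and -0.015.

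The bounds on a change were narrow for most genes in the fit with the block, and wider without it. In the fit with the block, the 95% interval of the change lay within 1 log2 unit of 0 for 46 of the 48 genes and within 0.5 for 37, where 93.3% and 52.4% of all tested probe sets did so. Without the block these counts were 37 and 15, and the shares of all probe sets 73.0% and 22.3%. The median half-width of the interval was then 0.56 for the 48 genes and 0.50 for all tested probe sets. Most of the genes were near the top of the intensities, with a median percentile of 99.04 to 99.53 per array. Whether such bright sets show a change in full was not tested. The cultured arrays lay within 0.5 of the ex vivo array of their own experiment in all 3 comparisons for 45 of the 50 genes (90%), as for 73.2% of all tested probe sets. The median distance between the 2 cultured arrays of experiment 2 was 0.11 over the 50 genes.

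Rpl12 and the paralog Rpl39l had the largest fitted changes. Rpl12, whose protein sits at the base of the stalk, read 8.36 and 8.07 ex vivo and 7.34, 7.50 and 7.56 in culture. All 3 cultured arrays lay below both ex vivo arrays. The difference was -0.75 (SE 0.14, adjusted p = 0.0765 with the block, and 0.377 without), on a probe set far dimmer than the several-symbol set that also names Rpl12. Markers of other marrow cells were read beside it. With the block, 5 of 8 macrophage markers were lower and 1 higher, where 0.561% and 1.24% of all tested probe sets were. Without it 1 was lower and 0 higher. The median difference of the 8 with the block was -1.44. Their summed intensity was 2104 and 1724 ex vivo and 1842, 1805 and 1488 in culture. Of 4 neutrophil markers 0 passed (3 at an unadjusted p under 0.05 in either fit), with a median difference of -0.60. The part of such cells in the Rpl12 values was not tested.

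Rpl39l read 5.64 and 5.93 ex vivo, and cultured PCs gave 6.30 in experiment 1 and 7.73 and 8.13 in experiment 2. The groups did not overlap, and the differences within the experiments were 0.66, 1.80 and 2.20. The fitted change was 1.60 (SE 0.57, adjusted p = 0.716) without and 1.43 (SE 0.32, adjusted p = 0.101) with the block. When the experiment 1 culture was left out it passed the threshold, at 2.15 (SE 0.21, adjusted p = 0.04996). That fit had no block, and its cultured arrays were only the 2 of experiment 2, which may come from the same culture. The stromal markers moved with Rpl39l. Their summed intensity over 12 genes was 744 and 595 ex vivo, and with culture 5362 in experiment 1 and 15443 and 15856 in experiment 2. With the block 10 of the 12 rose and 0 fell; without it 2 rose. The part of carried-over stromal RNA in the Rpl39l values was not tested.

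Rpl27a, Rpl22, Rps15 and Rps27l were lower in all 3 comparisons without passing. They were not alone in this, as 13 of the 50 genes (26%) were lower in all 3, near the 24.9% of all tested probe sets. Another 5 genes (10%) were higher in all 3, where 23.1% of all tested probe sets were. Rpl22, which also binds viral and cellular RNA outside the ribosome, read 12.98 and 12.65 ex vivo and 12.78, 12.25 and 12.32 in culture, a difference of -0.29 (SE 0.11, adjusted p = 0.25) with the block. Rpl27a differed by -0.36 (SE 0.21, adjusted p = 0.437), with its 2 cultured arrays of experiment 2 apart by 0.61, the widest such distance among the 50 genes. Rps27l, a paralog of Rps27 that p53 induces, differed by -0.36 (SE 0.13, adjusted p = 0.234) and Rps15 by -0.21 (SE 0.14, adjusted p = 0.493). In the other direction, Rpl7 differed by 0.14 (SE 0.11, adjusted p = 0.575) and Rps19 by 0.27 (SE 0.13, adjusted p = 0.346). Apart from Rpl12 and Rpl39l, all fitted changes with the block lay between -0.36 and 0.27.

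**Figure D2:**
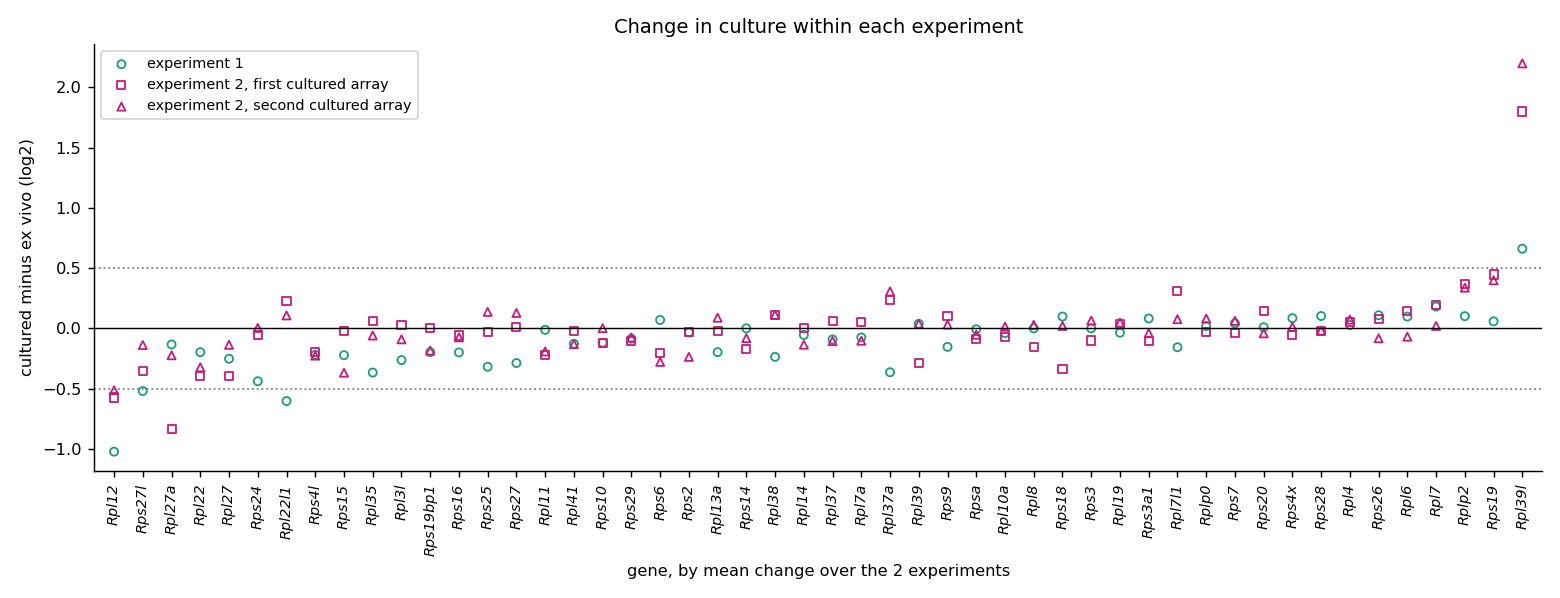
Log2 intensity of cultured minus ex vivo PCs (vertical axis) for each of the 50 genes, ordered by the mean of the 2 experiments. Circles are experiment 1, squares and triangles the first and second cultured arrays of experiment 2, and dotted lines mark 0.5 either side of 0. Values for 45 genes lie wholly between the dotted lines, and Rpl39l stands apart at 0.66, 1.80 and 2.20.

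A second probe set can differ from the brightest. Of all 102 tested probe sets of the 50 genes, 2 (1.96%) passed the culture test with the block, near the 1.8% of all tested probe sets, and 0 without it (5 at an unadjusted p under 0.05, where 6.59% of all did so). Both were sets of Rpl41. They were 1433530_at, with a change of -1.33 (adjusted p = 0.0086), and 1454639_x_at, at -1.17 (adjusted p = 0.0118), with mean log2 intensities of 9.17 and 9.77. The brightest set of Rpl41, at a mean of 13.42, gave -0.10 (adjusted p = 0.681).

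The culture effect could also be compared between the experiments. For this interaction 0 of the 48 genes and 0 of all 30477 probe sets (0%) passed limma's test, in a fit with 1 residual degree of freedom. At an unadjusted p under 0.05 there were 3 of 48 genes and 6.59% of all probe sets. The count was near that share and does not set the ribosomal protein genes apart. The genes were Rpl22l1 (a log2 difference of 0.77 between the changes), Rpl37a (0.64) and Rpl39l (1.34), with a more positive change in experiment 2.

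The ribosomal protein genes differed between the 2 experiments, in which both ex vivo and cultured PCs were measured. With culture in the model, 20 of the 48 genes (41.7%) were lower in experiment 2 and 0 were higher, where 13.8% of all tested probe sets were lower and 13% higher. The 20 comprised 7 of 19 large-subunit genes, 11 of 20 small-subunit genes, Rplp2 of the 2 stalk genes, and Rps19bp1. Their differences ran from -0.41 to -1.83 with a median of -0.63. Over all 48 genes the median was -0.18, over the 41 core ribosomal proteins -0.31 and over all tested probe sets 0.0047. The labels give an experiment number, read here as 1 isolation each, so the p-values do not measure the spread between isolations. The calls rest on few arrays. They fell to 0 when either ex vivo array, or the cultured one of experiment 1, was left out, while the median over the genes stayed between -0.28 and -0.18 and the difference of Rplp2 was -1.72, -1.72 and -1.97 (adjusted p = 0.104, 0.104 and 0.168). They numbered 15 lower and 1 higher without the first, and 10 lower without the second, cultured array of experiment 2. After quantile normalization 16 were lower and 1, Rpl37a, was higher. The share of all tested probe sets that passed was not counted in these settings. Whether the drop in calls is particular to the ribosomal protein genes is therefore not known.

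Rplp2, a stalk protein that contacts elongation factors, showed the largest difference. In experiment 1 it read 12.84 ex vivo and 12.95 cultured, and in experiment 2 it read 10.87 ex vivo and 11.24 and 11.21 cultured. The experiments did not overlap, and the difference was -1.83 (SE 0.12, adjusted p = 0.0025). Rplp0, the other stalk gene, differed by 0.0015 (SE 0.11, adjusted p = 0.994) between the experiments.

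Small-subunit genes followed. Rps27 read 7.32 and 7.03 in experiment 1 (ex vivo, then cultured) and 6.09, 6.10 and 6.21 in experiment 2, a difference of -1.03 (SE 0.13, adjusted p = 0.0064). Rps19, mutated in Diamond-Blackfan anemia, read 10.64 and 10.70 against 9.48, 9.93 and 9.88 (-0.95, SE 0.13, adjusted p = 0.0073). Both genes had every array of experiment 2 below those of experiment 1. Rps9 read 12.79 and 12.64 against 11.61, 11.72 and 11.64 (-1.05, SE 0.11, adjusted p = 0.0048). Rps15, near the decoding center, read 12.26 and 12.03 against 11.42, 11.40 and 11.05 (-0.82, SE 0.14, adjusted p = 0.013). Rps26, at the mRNA exit, gave -0.71 (adjusted p = 0.0113), Rps10 -0.63 (adjusted p = 0.0135) and Rps29 -0.62 (adjusted p = 0.0121). For all 3 the arrays of the experiments were again apart.

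Of the large subunit, Rpl11, which also binds Mdm2, read 12.80 and 12.78 in experiment 1 and 12.03, 11.81 and 11.83 in experiment 2 (-0.88, SE 0.11, adjusted p = 0.0062). Rpl35, near the exit of the tunnel, read 13.26 and 12.89 against 12.18, 12.24 and 12.12 (-0.87, SE 0.13, adjusted p = 0.0097). The remaining lower genes were Rpl4, Rpl7a, Rpl10a, Rpl14 and Rpl22 of the large and Rps20, Rps24, Rps25 and Rps28 of the small subunit.

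Other members lay close to 0 on their brightest probe set. Rps7 differed by -0.029 (SE 0.11, 95% interval -0.30 to 0.24), and Rps3a1, Rps4x, Rps18 and Rpl6 by -0.0033, 0.057, 0.044 and 0.038. Dimmer sets of Rps18 and Rps7 were lower in experiment 2, 1448739_x_at at -1.21 (adjusted p = 0.0108) and 1455572_x_at at -0.50 (adjusted p = 0.0221) for Rps18, and 1435593_x_at at -0.42 (adjusted p = 0.0417) for Rps7. For 19 of the 48 genes the 95% interval lay within 0.5 of 0, where it did for 34.7% of all tested probe sets. The genes with the largest positive differences did not pass. They were Rpl39l (1.06, SE 0.32, adjusted p = 0.0584), Rpl37a (0.50, SE 0.17, adjusted p = 0.0793), Rpl39 (0.40, SE 0.14, adjusted p = 0.0876), Rpl7l1 (0.38, SE 0.14, adjusted p = 0.105) and Rps27l (0.36, SE 0.13, adjusted p = 0.0982).

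The difference was seen in both conditions. The ex vivo arrays gave a median difference of -0.28 over the 50 genes and the cultured arrays one of -0.18. These are other arrays of the same 2 experiments, so the second difference does not repeat the first on new experiments. Both differences were below 0 for 32 genes, both above for 10, and opposite for 8. Across the 50 genes, which are not independent replicates and share the 5 arrays' normalization, Pearson's r of the ex vivo and cultured differences was 0.83 and Spearman's rho 0.85, where r was 0.75 across all tested probe sets. All 3 arrays of experiment 2 lay below both of experiment 1 for 24 of the 48 genes (25.2% of all tested probe sets) and above for 3 (24.1%). Of the squared spread of the 48 genes over the 5 arrays, grouping by experiment alone took up 75.5% and grouping by culture alone 21.6%, against 58.3% and 34.9% for all tested probe sets. For the 41 core ribosomal proteins these shares were 86.1% and 11.0%. The arrays are not balanced over experiment and culture, so the shares overlap in part.

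**Figure D3:**
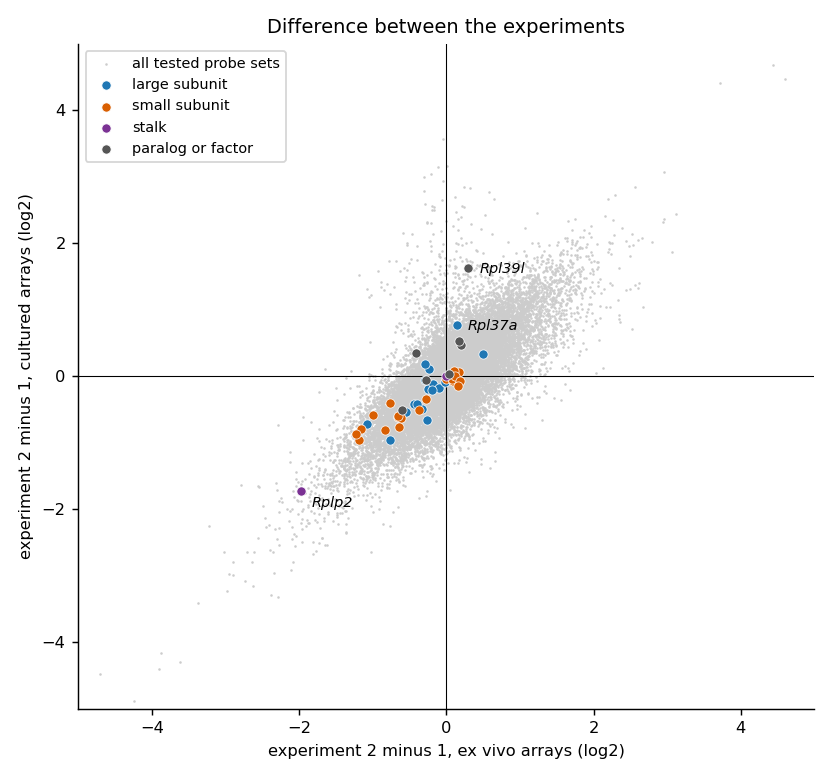
Log2 difference of experiment 2 minus experiment 1 in ex vivo arrays (horizontal axis) and in cultured arrays (vertical axis, mean of 2 cultured arrays in experiment 2). Grey points are all 30477 tested probe sets and colored points the 48 tested genes by class. The genes extend to the lower left as far as Rplp2 at -1.97 and -1.72, and Rpl39l lies apart at 0.30 and 1.64.

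Measures of the RNA also differed between the experiments. For Actb, the 3′ control probe set exceeded the 5′ one, as a log2 ratio, by 0.31 and 0.77 in experiment 1 and -0.12, -0.11 and -0.0094 in experiment 2, and for Gapdh by 0.74 and 0.63 against 0.34, 0.30 and 0.28. For either control, all 3 arrays of experiment 2 had a lower ratio than both of experiment 1. The summed intensity of 9 PC markers was 56743 to 61815 in all arrays, and 3 of the 9, Xbp1, Cd28 and Sdc1, were higher in experiment 2 while 0 were lower. The part of RNA quality in the ribosomal protein values was not tested, and isolation, labeling and hybridization of an experiment cannot be told apart. In whole samples, fewer cells of a type and less RNA per cell cannot be told apart either.

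The probe sets of a gene did not always give the same difference. Of the 24 genes with more than 1 tested probe set, 9 had the brightest set lower in experiment 2, and of the 36 sets of these 9 genes 27 were lower. The 27 include the 9 brightest sets by which the genes were picked, and 13.8% of all tested probe sets were lower. All sets passed for Rps15, Rps28 and Rps29. Rps9 and Rpl22 each rested on 1 set of 3. The brightest set of Rps9, 1434624_x_at, gave -1.05. Its set 1433689_s_at, with nearly the same mean intensity (12.06 against 12.08), gave 0.050 (SE 0.14, adjusted p = 0.816), and 1426958_at gave -0.12 (SE 0.12, adjusted p = 0.466). For Rpl22, the brightest set 1453118_s_at gave -0.42 (adjusted p = 0.0411), 1416603_at -0.24 (adjusted p = 0.152) and 1448398_s_at -0.23 (adjusted p = 0.256). The suffixes _x_at and _s_at mark sets whose probes can also match other genes. For Rpl35, 5 of the 6 sets were lower, 4 of them ending in _x_at and the other the dim 1454833_at (-1.04, adjusted p = 0.0048). The set 1416243_a_at gave 0.16 (SE 0.16, adjusted p = 0.49).

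In Rps10, Rps24 and Rps20 a dimmer set had the largest difference in size, in either direction. The 6 sets of Rps10 gave -0.51 to -3.39, 5 of them lower, with the strongest on 1416719_a_at (SE 0.12, adjusted p = 0.0014). Those of Rps24 gave 0.043 to -1.81, 5 of 6 lower. For Rps20 the 2 bright sets gave -0.63 and -0.62, and 2 dim ones 0.94 (adjusted p = 0.0055) and 0.88 (adjusted p = 0.0518). Among the 105 tested several-symbol probe sets that name a ribosomal protein, 44 (41.9%) were lower in experiment 2 and 5 (4.76%) higher. Of the 102 single-gene sets 46 (45.1%) were lower and 2 (1.96%) higher, and many of the several-symbol sets share a gene.

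**Figure D4:**
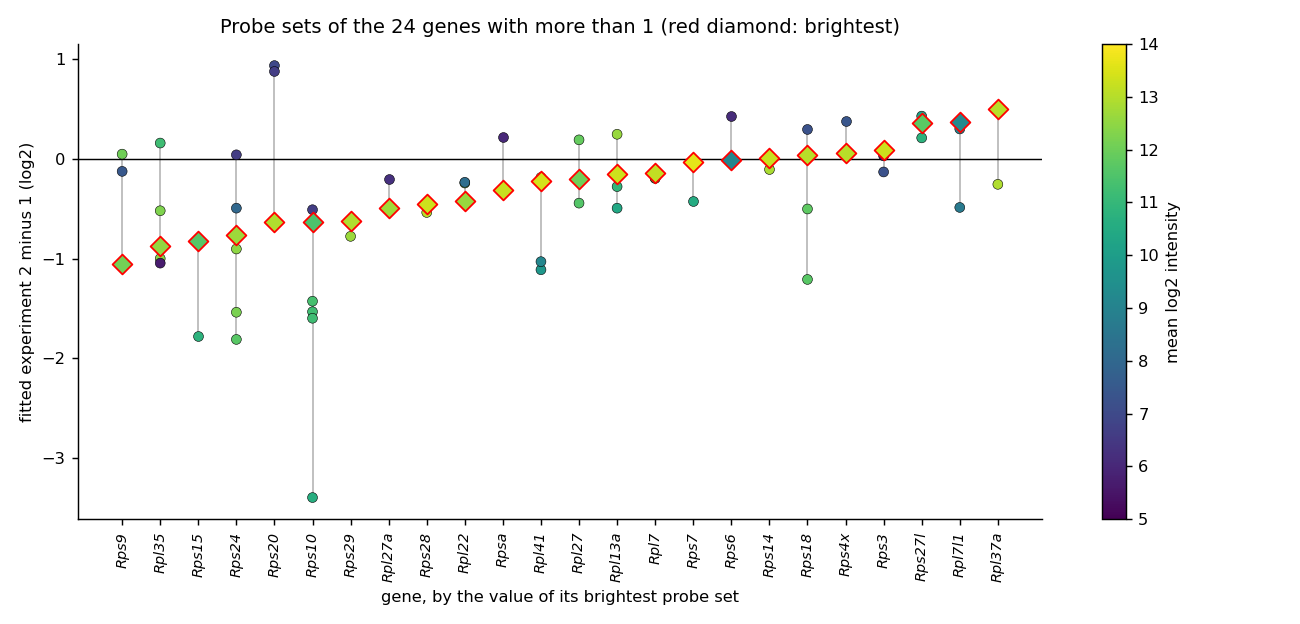
Fitted log2 difference of experiment 2 minus 1 (vertical axis) for each tested probe set of the 24 genes with more than 1, ordered by the value of the brightest set (red diamond). Color gives the mean log2 intensity. The sets of Rps10 run from -0.51 to -3.39, and those of Rps9 from -1.05 to 0.050.

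The paralogs are set here beside the genes they resemble. Of the 7 symbols outside the core, 0 passed for culture without or with the block, where 0.0459% and 1.8% of all tested probe sets did. Rpl39l, with the largest fitted culture change given above, is 1 of the 7. In experiment 2, 1 of the 7 (14.3%) was lower, near the 13.8% of all tested probe sets. It was Rps19bp1 (9.15 and 8.95 in experiment 1, 8.54, 8.54 and 8.36 in experiment 2, a difference of -0.55, SE 0.12, adjusted p = 0.0236). Rps27 was lower in experiment 2 by the value given, while its paralog Rps27l read 11.78 and 11.26 in experiment 1 and 11.98, 11.63 and 11.85 in experiment 2. Rpl22 differed by -0.42 (SE 0.11, adjusted p = 0.0411) on its brightest set, the only one of its 3 that passed. Rpl22l1 differed by 0.025 (SE 0.19, adjusted p = 0.937), with values from 8.97 to 9.57. Rpl7 and Rpl7l1, a factor of large-subunit assembly, gave -0.14 (SE 0.11) and 0.38 (SE 0.14), and neither passed. Another set of Rpl7l1, 1452049_at, with a mean log2 intensity of 8.69 against 9.23, was lower, at -0.48 (adjusted p = 0.0344). Rpl39 and Rpl39l gave 0.40 and 1.06 without passing. Rps4x and Rps4l differed by 0.057 and 0.035, and Rpl3l by -0.15 (SE 0.12, adjusted p = 0.397). The differences between paralogs were not tested.

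The tract at the start was present in genes that did and did not differ. Among the 18 lower genes with a promoter in the table, 5 had the annotated TOP start and 12 the looser tract, and among the other 26 these counts were 3 and 11. The motif CCGGAAG was in 6 of the 18 and 15 of the 26, and GGGCGG in 8 and 18. No test was made of these counts.

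Genes that act with the ribosomal proteins were read from the same fits. Fau, which encodes a small-subunit protein joined to a ubiquitin-like one, was lower in experiment 2, at -1.58 (SE 0.10, adjusted p = 0.0026). Of 19 elongation factors and other genes with TOP mRNAs, 7 were lower (36.8%) and 0 higher, led by Eef1d (-0.68) of the elongation factor 1 complex and by Eif3l (-0.62), Eif3k (-0.61) and Eif3h (-0.61) of initiation factor 3. Of 20 initiation factors and regulators 4 were lower and 4 higher, and the higher ones were Eif4ebp2 (1.09), a repressor of cap-dependent initiation, Eif2s3x (1.05), Eif6 (0.93) and Eif1a (0.78). Among 15 genes of rRNA transcription 4 were lower, with Ubtf (-0.79) and Ttf1 (-0.71), and 3 higher, with Rrn3 (0.67) and Taf1b (0.68).

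Of 59 ribosome biogenesis genes 17 were lower (28.8%), led by Gnl2 (-1.39), Ltv1 (-1.24), Mybbp1a (-0.87) and Lyar (-0.67), and 5 higher (8.47%). Of 76 mitochondrial ribosomal protein genes 21 were lower (27.6%), among them Mrpl12 (-1.58), Mrpl35 (-1.53) and Mrpl9 (-0.96), and 4 higher (5.26%), among them Mrpl50 (1.32). Over all 13578 genes tested, by their brightest probe set, 14.1% were lower and 11.0% higher. With culture, 0 genes of any of these lists passed in either fit. Unadjusted p-values with the block lay under 0.05 for 2348 of all 13578 tested genes, and for 20 of the 76 mitochondrial genes, 6 of 59 biogenesis genes, 2 of 15 of rRNA transcription, 1 of 20 initiation factors and 0 of 19 elongation factors and other TOP genes. The median change with the block was -0.19 for the mitochondrial ribosomal proteins, -0.053 for the cytosolic ones and -0.048 for all tested genes.

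**Figure D5:**
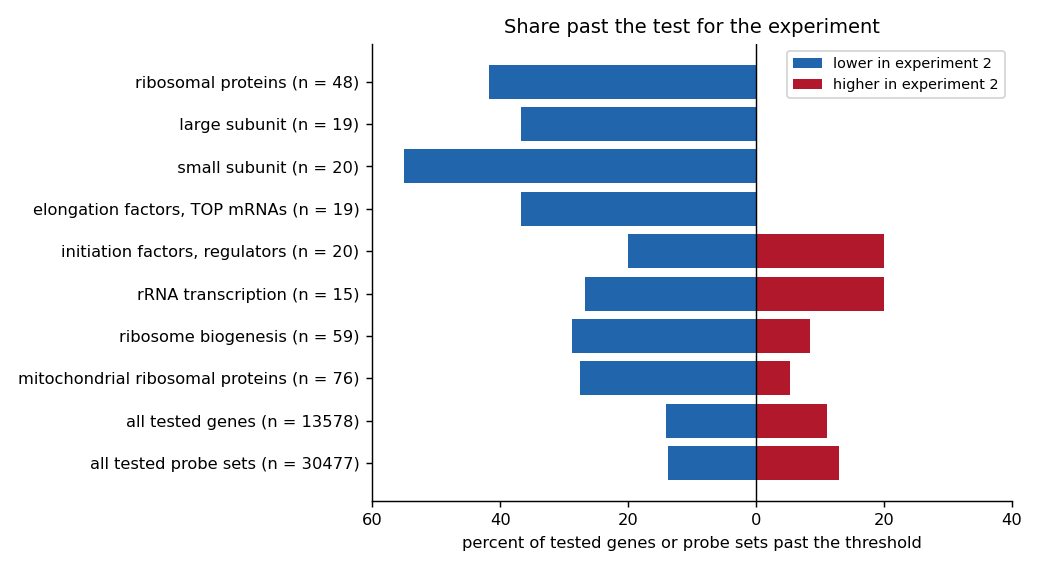
Percent of the tested genes of each list that were lower (blue, to the left) or higher (red, to the right) in experiment 2 by limma at an adjusted p of 0.05, with all tested genes and probe sets as the background. The cytosolic ribosomal proteins reach 41.7% lower and 0 higher, and all tested probe sets 13.8% and 13%.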

How the data were processed

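Total RNA was hybridized to Affymetrix mouse GeneChips. Raw signals were background-corrected, normalized and summarized by the authors with RMA in the affy package, who deposited linear intensities for 45101 probe sets, which were taken to log2 here. RMA normalizes the arrays to each other, so a shift of all mRNAs together may not show. The summarized values still differed in median, from 87.05 to 94.14 per array, and the number of arrays limits the precision. After leaving out 64 control probe sets, 34945 carried a single symbol, 932 several and 9160 none in GEO's platform annotation. The symbols of all 50 members matched RefSeq. A probe set entered the tests if 2 or more arrays reached an intensity of 50, which left 30477.

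Cultured and ex vivo arrays, and the experiments with culture as a covariate, were compared with limma 3.58.1 (lmFit and eBayes) in R 4.3.3, two-sided, with Benjamini-Hochberg adjustment over all tested probe sets. Every adjusted p and SE in the report is from these fits. The scripts were tested on simulated data. The study's methods name limma and state no design or covariate; the main culture fit had no block. The labels give an experiment number in both groups, and the block pairs the arrays by it. Deviations from the group means correlated at 0.749, 0.558 and 0.719 between arrays of the same experiment across 30477 probe sets. These values are not independent, as the ex vivo deviations mirror each other. They do not show which step the arrays of an experiment share. Alternatives were the block, averaging the cultured arrays of experiment 2, other filters, normalizations and probe sets, and leaving out arrays. Named were the 5 brightest and 5 dimmest members, up to 5 per direction with the largest changes of the same sign throughout, up to 10 called, all paralogs, and up to 4 called genes per list. The members and lists were chosen with earlier results of these data known. Sequences are from RefSeq, GRCm38.p6.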

Additional observations from a re-analysis of the deposited data

How the results depend on the processing

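The number of ribosomal protein genes that passed for culture was 0 in all settings but 2: it was 1 at an unadjusted p under 0.01 (Rpl12), and 0 to 1 when each array was left out (Rpl39l without the cultured array of experiment 1). The replicate block gave 0 as well. The median culture change of the 50 genes, -0.10 in the unpaired fit, was -0.054 with the replicate block, -0.058 with the cultured arrays of experiment 2 averaged, with or without the block, -0.060 and -0.065 with the block and without the first or second of those arrays (chosen after seeing the data), -0.15 with the arrays at a common median, and -0.25 to 0.050 when each array was left out. The genes that passed for the experiment numbered 15 to 21 in the other settings and 0 to 16 when each array was left out. All were lower in experiment 2 but for 1 higher gene in each of 4 settings: Rpl37a with quantile normalization and over the 10000 brightest probe sets, Rps20, on a dim set, without sets ending in _x_at or _s_at, and Rpl39 without the first cultured array of experiment 2. A lone array left in an experiment or condition is assumed to vary like the others. The share of all tested probe sets that passed was not counted in these settings. The median difference between experiments, -0.18, was -0.25 at a common median, -0.31 for core ribosomal proteins, -0.32 on several-symbol probe sets (chosen after seeing the data) and -0.28 to -0.18 when each array was left out. Reversed were the culture values of Rps19 (-0.47 to 0.69 over the arrays left out, below 0 without ex vivo experiment 2, and -0.16 without cultured experiment 1) and of Rps15 (-0.76 to 0.076, above 0 without ex vivo experiment 1), and, without sets ending in _x_at or _s_at, the experiment values of Rpl35 (0.16) and Rps20 (0.94, adjusted p = 0.0055), which were then read from another set of the gene. Interaction calls were 0 also without the filter.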
